A study of Mus musculus with 6 samples.

Results

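The Fanconi anaemia core complex genes, with Fancd2, were examined in germinal vesicle (GV) oocytes, the immature eggs arrested with an intact nucleus. The set was 10 of the 49315 genes counted: Fanca, Fancb, Fancc, Fance, Fancf, Fancg, Fancl, Fancm, Faap20 and Fancd2. They were taken by gene symbol, and all 10 were found. Oocytes came from Rpa1 OcKO mice, in which Rpa1 is deleted only in the oocyte by conditional knockout, and from Control mice; the sources used here name neither the driver of the deletion nor the exact Control genotype. Both groups were 4 to 5 weeks old and had been primed with PMSG, a gonadotropin that stimulates follicle growth. Each of the 3 OcKO and 3 Control libraries came from 1 mouse and held about 20 fully grown oocytes stripped of cumulus cells. The series asks about the part of RPA1, the large subunit of the protein that coats single-stranded DNA, in repair during oogenesis.

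The Fanconi pathway repairs DNA crosslinks that block replication forks. A multi-subunit core complex, brought to DNA by FANCM, attaches a single ubiquitin to FANCD2 and its partner FANCI, and the marked pair then recruits nucleases and recombination proteins. Loss of Fanconi genes in mice is known to deplete germ cells, and the pathway acts on meiotic chromosomes as well as at replication forks.

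The targeted gene followed the labels. Rpa1 stood at 7.76, 4.14 and 6.84 CPM (counts-per-million, scaled by TMM between libraries) in OcKO oocytes, against 156, 155 and 140 CPM in Control oocytes (log2 fold change -4.59, SE 0.31, edgeR adjusted p = 0.0064). Total counts ran between 36280148 and 44575222 per library, so 1 count was worth 0.0220 to 0.0288 CPM. All 10 oocyte markers, such as Gdf9 and Zp3, were present in both groups, with a summed level of 24400 to 29300 CPM in OcKO and 28900 to 47600 CPM in Control. Some lay wholly lower in OcKO: Gdf9 (6680 to 7430 CPM, against 8180 to 14000 CPM in Control), Bmp15 (2460 to 4130, against 5060 to 7790) and Mos (303 to 436, against 456 to 510). The other oocyte markers overlapped between groups. Over all 16060 genes tested with edgeR, 8.67% lay wholly below in OcKO and 10.7% wholly above. The 11 granulosa and cumulus markers summed to 86.8 to 115 CPM in OcKO and 61.5 to 105 CPM in Control, and Foxl2, a defining marker, was at most 0.0492 CPM in OcKO and 0 in all Control libraries. Others of the list were present in both groups: Nr5a2 at 24.0 to 39.0 CPM in OcKO and 12.5 to 34.2 CPM in Control, Inha at 9.75 to 39.8 CPM in OcKO and 10.9 to 15.3 CPM in Control, and Cyp19a1 at 8.27 to 29.8 CPM in OcKO and 19.3 to 35.0 CPM in Control. The 6 theca and stroma markers summed to 1.26 to 3.72 CPM in OcKO and 2.37 to 7.44 CPM in Control, and the 6 blood and immune markers to 1.05 to 7.26 CPM in OcKO and 3.92 to 13.0 CPM in Control. The 4 endothelial markers summed to 143 to 238 CPM in OcKO and 111 to 160 CPM in Control, mostly from Pecam1 and Tek (Tek at 49.2 to 115 CPM in OcKO and 25.8 to 36.6 CPM in Control), while Cdh5 was at most 0.0246 CPM in OcKO and 0 in Control. The part of such RNA in the results below was not tested.

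RNA of most core complex genes was measured in the oocyte, and none of the set passed the test for a difference between OcKO and Control oocytes. Of the 10 genes, 9 passed the filter on low counts, and edgeR called 0 of them (Benjamini-Hochberg adjusted p under 0.05 over all 16060 genes tested), where 0.143% of all tested genes were called (0.137% higher and 0.00623% lower in OcKO). Of the 9, 1 reached an unadjusted p under 0.05, Faap20, where 11.1% of all tested genes did (5.93% higher and 5.21% lower), so this share is at the background. DESeq2 called 1 of them higher, also Faap20, and 0 lower, against 4.39% and 2.24% of all genes it tested. The count by limma voom was 0. The libraries of OcKO lay wholly above those of Control for Faap20 and Fancm and wholly below for Fanca, and the other 6 overlapped; among all tested genes 19.4% did not overlap, 10.7% above and 8.67% below. The 9 log2 fold changes had a median of -0.25, with 2 positive and 7 negative. Over all tested genes the median was 0.01, with 8152 positive and 7908 negative. Among the 7, Fancc, Fancg and Fancl turned positive under some of the alternatives given below.

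The 3 genes whose libraries did not overlap are shown with the sequence just upstream of their starts. These are RefSeq promoter windows (GRCm38.p6), cut to at most 250 bases and ended before the first base of the gene in the deposited annotation. Faap20 is at chr4:155249716-155249801 on the plus strand, Fancm at chr12:65075353-65075602 on the plus strand, and Fanca at chr8:123318577-123318826 on the minus strand. Each is printed 5′ to 3′ on the strand of its gene. Capitals mark the letters CCAAT, the GC box (GGGCGG) and, in Fancm, the NRF1 core (GCGCATGCG), on either strand.
Faap20: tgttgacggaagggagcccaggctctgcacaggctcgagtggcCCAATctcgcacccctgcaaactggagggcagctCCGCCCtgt
Fancm: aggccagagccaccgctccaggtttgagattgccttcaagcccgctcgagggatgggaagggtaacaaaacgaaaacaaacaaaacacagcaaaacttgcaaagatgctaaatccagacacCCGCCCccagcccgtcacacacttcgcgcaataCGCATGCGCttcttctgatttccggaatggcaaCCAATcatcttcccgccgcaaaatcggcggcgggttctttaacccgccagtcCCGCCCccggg
Fanca: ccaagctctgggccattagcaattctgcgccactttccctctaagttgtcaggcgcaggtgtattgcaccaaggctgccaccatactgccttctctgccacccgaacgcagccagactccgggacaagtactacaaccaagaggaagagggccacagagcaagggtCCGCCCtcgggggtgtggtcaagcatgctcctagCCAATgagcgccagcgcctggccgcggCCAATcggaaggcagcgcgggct

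All 3 stretches held CCAAT and a GC box. Over the full RefSeq windows of 300 bases, found for 9 of the 10 genes (all but Fancd2), CCAAT was present in 7 of 9 and GGGCGG in 6 of 9. These counts include the 3 genes shown. Of the others, Fancf, Fance and Fancb held both, Fancc held CCAAT alone, and Fancg and Fancl held neither. The windows of Fancc and Fancl lie inside the deposited gene, with 0 bases upstream of its start. Among all 32851 RefSeq promoter windows, 37.4% held CCAAT and 35.7% held GGGCGG. The NRF1 core was present in 1 of 9 (Fancm), against 1.75% of all windows. The E2F letters TTTCCCGC or TTTGGCGC were present in 1 of 9 (Fancg), against 1.56%. The letters TTTGAA, the cell cycle homology element, were found in 0 of 9, against 17.9%. The windows of the 9 genes were 47.0% (Fancl) to 66.7% (Faap20) G and C, against a median of 52.7% over all windows. The motifs were searched on both strands, and a match is a description of letters.

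The first module of the core complex joins FANCA, FANCG and FAAP20. Faap20 (ENSMUSG00000073684, chromosome 4, 155249802 to 155256687, plus strand, GRCm38) encodes a small subunit that, in human cells, binds FANCA, stabilises it and recognises ubiquitin. Faap20 was measured at 53.1, 34.1 and 31.4 CPM in OcKO oocytes, against 20.5, 15.8 and 16.8 CPM in Control oocytes. Every OcKO library lay above every Control library, and OcKO replicate 1 was the highest. The means were 39.5 ± 11.8 CPM in OcKO and 17.7 ± 2.45 CPM in Control (SD, n = 3 each), a 2.23-fold difference (log2 fold change 1.16, SE 0.32, 95% interval 0.41 to 1.90). It did not pass over all genes (edgeR adjusted p = 0.210, unadjusted p = 0.00759). DESeq2 gave an adjusted p of 0.00660, and the adjusted p over the 13 alternatives ran from 0.00660 to 0.481. Without OcKO replicate 1 the log2 fold change was 0.88 (edgeR adjusted p = 0.414). No exon of Faap20 overlaps one of another gene in the deposited annotation.

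Fanca (ENSMUSG00000032815, chromosome 8, 123268300 to 123318576, minus strand) encodes the large subunit of the same module, which FAAP20 binds. Fanca was measured at 26.6, 23.6 and 29.9 CPM in OcKO, against 34.9, 40.3 and 45.1 CPM in Control. All OcKO libraries lay below all Control libraries, in the direction opposite to Faap20. The log2 fold change was -0.59 (SE 0.26, 95% interval -1.19 to 0.02). Fanca did not pass over all genes (edgeR adjusted p = 0.464, unadjusted p = 0.0555). Its exons share 920 bases, 10.5% of the gene's exonic length, with Zfp276 on the opposite strand. The library kit does not mark strand, so reads in that stretch cannot be assigned to one gene. Zfp276 itself stood at 37.7 ± 13.4 CPM in OcKO and 49.1 ± 9.50 CPM in Control (SD, n = 3 each).

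The balance of Faap20 to Fanca within a library does not depend on how libraries are scaled. Per kilobase of gene length, the Faap20 to Fanca ratio was 10.03, 7.27 and 5.28 in OcKO, against 2.95, 1.98 and 1.87 in Control. The lowest OcKO ratio was above the highest Control ratio, with means of 7.53 ± 2.38 in OcKO and 2.27 ± 0.597 in Control (SD, n = 3 each). This separation was fixed in advance, because OcKO lay wholly above Control for Faap20 and wholly below for Fanca. It adds no support to either result. The size of the ratio depends on the gene lengths: with the longest protein-coding transcripts of GENCODE M21, a choice made after seeing the data, it was 6.05, 4.38 and 3.19 in OcKO, against 1.78, 1.19 and 1.13 in Control. The factor is the same in every library, so the order of the libraries does not change. This ratio was chosen after the values were seen, so it is given without a test. The ratios of Faap100 to Fancb, Faap24 to Fancm and Ube2t to Fancl were also formed, and each overlapped between groups.

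Fancg (ENSMUSG00000028453, chromosome 4, 43002343 to 43010506, minus strand), the third gene of the module, encodes a scaffold that FANCA binds. Fancg was measured at 46.3, 13.3 and 32.0 CPM in OcKO, against 49.8, 32.9 and 26.3 CPM in Control. The groups overlapped, and OcKO replicate 2 was the lowest of all 6. The log2 fold change was -0.25 (SE 0.48, edgeR adjusted p = 0.914), and it was 0.14 without OcKO replicate 2 and 0.04 without Control replicate 1.

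The module of FANCC, FANCE and FANCF brings the substrate to the complex. Fancc (ENSMUSG00000021461, chromosome 13, 63304709 to 63497278, minus strand) encodes the subunit that binds FANCE. Fancc was measured at 199, 159 and 168 CPM in OcKO, against 169, 136 and 259 CPM in Control. The OcKO libraries lay inside the Control range. Its log2 fold change was -0.10 (SE 0.26, 95% interval -0.71 to 0.51, edgeR adjusted p = 0.941), or 0.06 with scaling by library size alone and 0.22 without Control replicate 3. Exons of Fancc share 185 bases with 2010111I01Rik on the opposite strand, which is 2.35% of its exonic length.

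Fance (ENSMUSG00000007570, chromosome 17, 28313530 to 28326568, plus strand) encodes the subunit that contacts FANCD2. Fance was measured at 4.64, 1.496 and 9.75 CPM in OcKO, against 21.8, 4.22 and 6.57 CPM in Control. It was the most variable of the 9 tested genes, with a 6.52-fold range inside OcKO and a 5.16-fold range inside Control. The SD of its log2 CPM was 1.36 in OcKO and 1.22 in Control, against medians over all tested genes of 0.505 in OcKO and 0.462 in Control. Its log2 fold change (-1.04, SE 0.90, edgeR adjusted p = 0.758) rested on Control replicate 1: without it the value was -0.04.

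Fancf (ENSMUSG00000092118, chromosome 7, 51860577 to 51862267, minus strand), a gene of 1 exon, encodes an adaptor of the core complex, and it was almost without reads. The OcKO libraries held 0, 1 and 32 counts, against 0, 1 and 0 counts in Control. Nearly all reads lay in OcKO replicate 3, at 0.788 CPM there. Fancf did not pass the filter on low counts and was not tested, and no fold is given. Its exon shares 253 bases, 15.0% of its length, with Gas2 on the opposite strand, and Gas2 stood at 2.49, 0.440 and 0.394 CPM in OcKO and 0, 0 and 0.922 CPM in Control. The sources used here do not say how reads in that shared stretch were assigned.

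**Figure D1:**
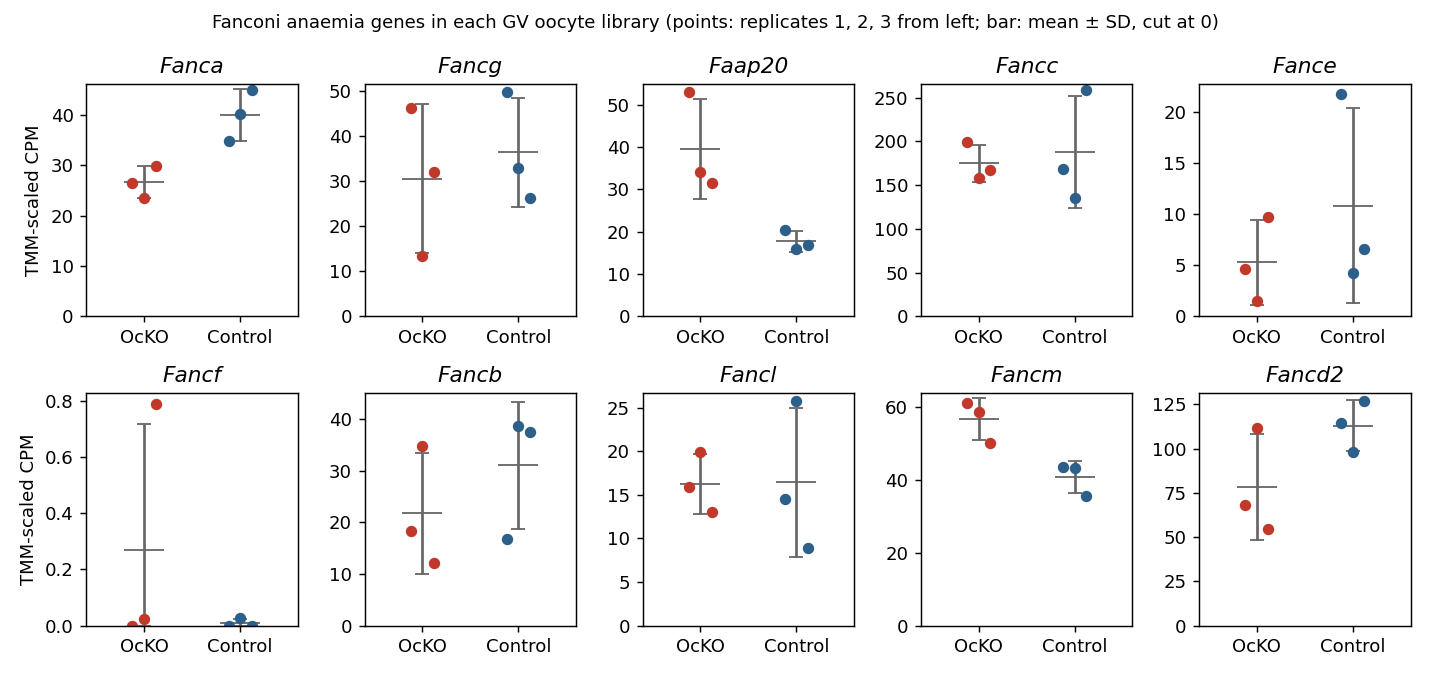
TMM-scaled CPM of the 10 genes, 1 panel per gene with its own vertical axis from 0; points are the libraries of OcKO (left) and Control (right), bars are mean ± SD (n = 3). Faap20 and Fancm have all OcKO points above all Control points, Fanca has them all below, and Fancf reaches 0.788 CPM in OcKO replicate 3.

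FANCB and FANCL form the catalytic module with FAAP100, and FANCL is the RING ubiquitin ligase. Fancb (ENSMUSG00000047757, chromosome X, 164980592 to 164997272, plus strand) was measured at 18.2, 34.8 and 12.1 CPM in OcKO, against 16.8, 38.7 and 37.5 CPM in Control. Each group held both low and high libraries, so the groups overlapped (log2 fold change -0.51, SE 0.50, 95% interval -1.68 to 0.65, edgeR adjusted p = 0.796). Fancl (ENSMUSG00000004018, chromosome 11, 26386135 to 26471876, plus strand) was measured at 15.9, 19.9 and 13.0 CPM in OcKO, against 14.5, 25.8 and 8.93 CPM in Control. The OcKO libraries lay inside the Control range, and the means were 16.3 ± 3.42 CPM in OcKO and 16.4 ± 8.57 CPM in Control (SD, n = 3 each). For Fancl the log2 fold change was -0.01 (SE 0.47, edgeR adjusted p = 0.997), or 0.16 with library size alone. Its 95% interval, -1.12 to 1.09, still allows a doubling or a halving, so the data do not show that the ligase gene was equal. Fancl shares 462 exonic bases, 13.7% of its length, with Vrk2 on the opposite strand. Vrk2 averaged 6.56 ± 2.98 CPM in OcKO and 1.98 ± 1.66 CPM in Control (SD, n = 3 each).

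Fancm (ENSMUSG00000055884, chromosome 12, 65075606 to 65132058, plus strand) encodes the DNA translocase that anchors the complex on DNA. Fancm was measured at 61.3, 58.8 and 50.3 CPM in OcKO, against 43.5, 43.4 and 35.8 CPM in Control. All OcKO libraries lay above all Control libraries, by a small margin. The means were 56.8 ± 5.80 CPM in OcKO and 40.9 ± 4.47 CPM in Control (SD, n = 3 each; log2 fold change 0.47, SE 0.22, 95% interval -0.05 to 0.99). It did not pass the test (edgeR adjusted p = 0.4995, unadjusted p = 0.0683).

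Fancd2 (ENSMUSG00000034023, chromosome 6, 113531682 to 113597017, plus strand) encodes the substrate that the core complex ubiquitinates. Fancd2 was measured at 68.3, 112 and 54.6 CPM in OcKO, against 114, 97.9 and 127 CPM in Control. OcKO replicates 1 and 3 lay below every Control library, and OcKO replicate 2 lay among them. The log2 fold change was -0.53 (SE 0.29, 95% interval -1.21 to 0.15, edgeR adjusted p = 0.590), and without OcKO replicate 2 it was -0.84 (adjusted p = 0.233). Fancd2os, which shares 257 exonic bases with Fancd2 on the opposite strand, had at most 1 count in any library.

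Levels of different genes were compared per length, as RPKM (TMM-scaled CPM divided by the deposited gene length in kilobases). In OcKO oocytes Faap20 (22.7 ± 6.79 RPKM) and Fancc (22.2 ± 2.68 RPKM) led, with overlapping libraries (SD, n = 3 each). Fancc stood clear of the next gene, Fancd2 (9.86 ± 3.77 RPKM), and Fancd2, Fancg, Fancm and Fancb each overlapped the next in order, down to Fancl. Fancl stood clear of Fanca (3.05 ± 0.361 RPKM), which overlapped Fance (1.66 ± 1.31 RPKM), and Fancf came last at 0.160 ± 0.265 RPKM. In Control oocytes Fancc (23.8 ± 8.11 RPKM) stood clear of Fancd2 (14.2 ± 1.82 RPKM), and Fancd2, Fancb and Faap20 each overlapped the next, down to Fancg. Fancg stood clear of Fancm (5.26 ± 0.574 RPKM), and Fancm, Fancl and Fanca each overlapped the next, down to Fance, above Fancf at 0.00520 ± 0.00900 RPKM. Only neighbours in the order were compared, and the gap below Fancg does not part the genes into blocks. Fancl reached 7.64 RPKM in Control replicate 2, above Fancg in Control replicate 3 (6.93 RPKM). In Control replicate 1, Fance stood at 6.84 RPKM and Fancb at 5.62 RPKM.

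Faap20 took 26.04% of the summed RPKM of the 10 genes in OcKO and 11.77% in Control, and ranked 1 in OcKO and 4 in Control. The sum over the 10 genes overlapped between groups, at 99.7, 85.6 and 76.0 RPKM in OcKO and 87.0, 79.5 and 92.5 RPKM in Control. Against all tested genes the set ran from near the bottom to the upper range: the mean RPKM of Fancc over all libraries was above that of 82.9% of tested genes, of Faap20 above 78.0%, of Fancd2 above 72.9%, of Fanca above 51.9%, of Fance above 44.1% and of the untested Fancf above 1.1%. The order depends on the gene length used. With the longest protein-coding transcript of GENCODE M21, a choice made after seeing the data, Fancc stood at 55.3 RPKM in OcKO and 59.4 RPKM in Control, and Faap20 at 26.7 RPKM in OcKO and 11.97 RPKM in Control, so Fancc led in both groups. In pooled oocytes, fewer cells of a kind and less RNA per cell cannot be told apart.

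**Figure D2:**
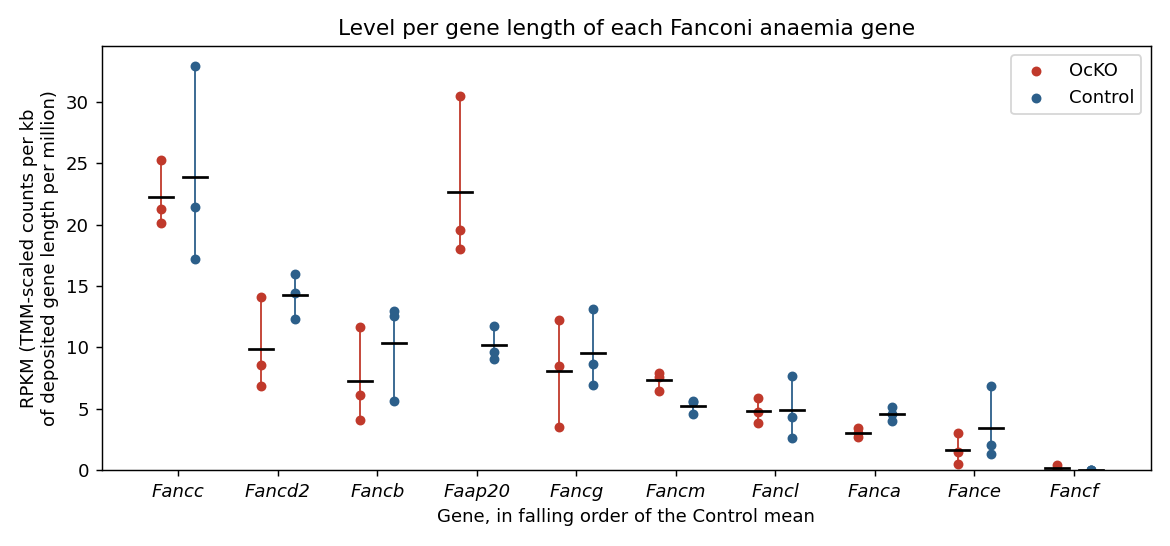
RPKM of each gene in each library, on a linear axis, with OcKO (red) to the left of Control (blue); black bars are means of 3 libraries and thin lines join the lowest and highest. Faap20 averages 22.7 RPKM in OcKO and 10.2 RPKM in Control, while Fancc leads in Control at 23.8 RPKM and Fancf lies near 0.

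The partners of these proteins were read from a list of 8 genes: the FANCD2 partner Fanci, the anchor genes Faap24, Cenps and Cenpx, the catalytic module gene Faap100, the ubiquitin-conjugating enzyme Ube2t, and Usp1 and Wdr48, whose products remove the ubiquitin. All 8 were tested, and edgeR, DESeq2 and limma voom each called 0 over all genes; by edgeR 1 had an unadjusted p under 0.05, against 11.1% of all tested genes, and DESeq2 called 4.39% of all its genes higher and 2.24% lower. Their median log2 fold change was 0.12, with 6 positive and 2 negative. Ube2t, at 430 ± 49.0 CPM in OcKO and 415 ± 42.3 CPM in Control (SD, n = 3 each), had overlapping libraries (log2 fold change 0.05, SE 0.17, 95% interval -0.34 to 0.44).

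Faap24, which encodes the DNA-binding partner of FANCM, was the partner gene with an unadjusted p under 0.05. Faap24 was measured at 16.5, 19.5 and 41.9 CPM in OcKO, against 9.24, 13.8 and 10.2 CPM in Control. All OcKO libraries lay above all Control libraries, with OcKO replicate 3 far above the others. The log2 fold change was 1.22 (SE 0.46, edgeR adjusted p = 0.371), and 0.70 without OcKO replicate 3. Its exons share 138 bases with the abundant Rhpn2 on the opposite strand. Rhpn2 averaged 866 ± 78.7 CPM in OcKO and 1256 ± 29.3 CPM in Control (SD, n = 3 each).

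Faap100 and Cenps also had libraries that did not overlap, and are named because of those values. With Faap24, OcKO lay wholly above Control for 2 of the 8 partner genes and wholly below for 1, against 10.7% above and 8.67% below over all tested genes. Faap100 was measured at 75.5, 40.8 and 42.2 CPM in OcKO, against 35.8, 33.4 and 30.9 CPM in Control (log2 fold change 0.66, SE 0.31, edgeR adjusted p = 0.497). OcKO replicate 1 was the highest, as it was for Faap20, and without it the log2 fold change of Faap100 was 0.31. Cenps was measured at 148, 134 and 149 CPM in OcKO, against 168, 197 and 187 CPM in Control (log2 fold change -0.36, SE 0.16, adjusted p = 0.484).

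Fanci, whose protein is ubiquitinated together with FANCD2, was measured at 78.3, 73.6 and 35.0 CPM in OcKO, against 92.6, 37.3 and 34.2 CPM in Control. The groups overlapped, and both held a wide spread (log2 fold change 0.19, SE 0.48, edgeR adjusted p = 0.940). Per length, the Fanci to Fancd2 ratio was 1.58, 0.905 and 0.881 in OcKO, against 1.11, 0.524 and 0.371 in Control, which overlapped. Fanci shares 921 exonic bases, 16.0% of its length, with Polg on the opposite strand, at 24.6 ± 7.80 CPM in OcKO and 25.5 ± 10.6 CPM in Control (SD, n = 3 each).

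**Figure D3:**
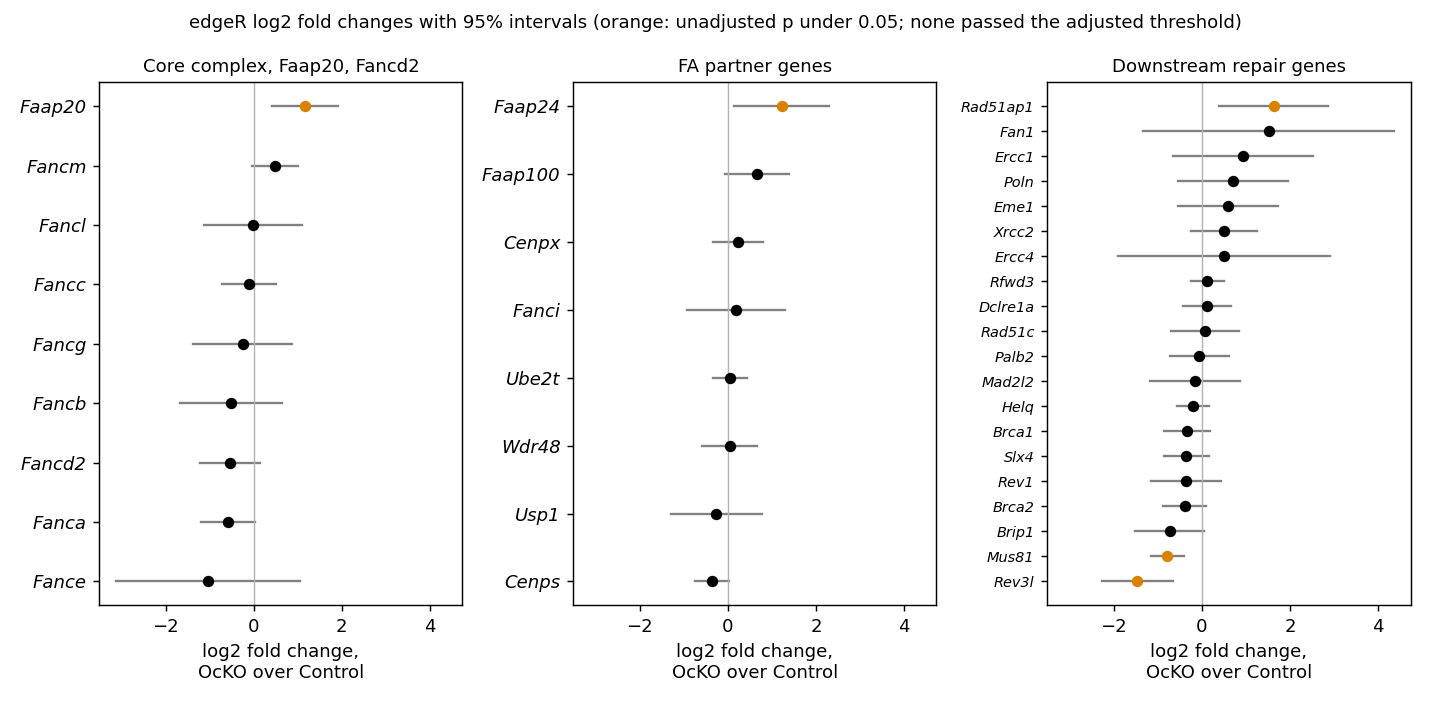
edgeR log2 fold changes of OcKO over Control (points) with 95% intervals (lines) for the 9 tested core complex and Fancd2 genes, the 8 partner genes and the 20 downstream genes; orange points have an unadjusted p under 0.05. Only Faap20 (1.16) in the first panel, Faap24 (1.22) in the second, and Rad51ap1 (1.63), Mus81 (-0.79) and Rev3l (-1.47) in the third are orange.

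Downstream of the ubiquitinated pair, 20 repair genes of nuclease, recombination and bypass synthesis steps were all tested. edgeR called 0 over all genes and limma voom 0, and 1 gene higher and 2 lower reached an unadjusted p under 0.05 by edgeR, against 5.93% higher and 5.21% lower over all tested genes. DESeq2 called those same 3, against 4.39% higher and 2.24% lower over all its genes. Their median log2 fold change was 0.01, with 10 positive and 10 negative. OcKO lay wholly above Control for 2 of the 20 and wholly below for 3, against 10.7% and 8.67% of all tested genes. Mus81, which encodes a structure-selective nuclease, was measured at 131, 136 and 153 CPM in OcKO, against 227, 244 and 254 CPM in Control (log2 fold change -0.79, SE 0.16, edgeR adjusted p = 0.120).

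Rev3l, which encodes the catalytic subunit of the translesion polymerase zeta, was measured at 14.0, 27.8 and 26.9 CPM in OcKO, against 73.7, 67.8 and 48.4 CPM in Control. All OcKO libraries lay below all Control libraries (log2 fold change -1.47, SE 0.34, edgeR adjusted p = 0.147). Rad51ap1, which encodes an accessory protein of homologous recombination, was measured at 34.7, 28.2 and 20.2 CPM in OcKO, against 3.61, 10.3 and 13.0 CPM in Control. Its libraries did not overlap (log2 fold change 1.63, SE 0.53, edgeR adjusted p = 0.290). By DESeq2 the adjusted p was 1.8e-05 for Mus81, 0.00187 for Rev3l and 0.0358 for Rad51ap1, the lowest over their alternatives, and the highest were 0.481, 0.481 and 0.553.

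Likeness of pattern was read as Pearson's r of log2 CPM over the 6 libraries, among 9247 tested genes averaging at least 5 CPM. Genes with a Gm-number, Rik, -ps or clone-type symbol, or only an identifier, were left out of this search. The genes most like Faap20 were Tdrd7 (r = 0.988), Utp15 (0.987) and Zfp692 (0.985). Tdrd7 averaged 41.7 CPM in OcKO and 19.5 CPM in Control. For Fancd2 they were Thap1 (0.993), Klhdc1 (0.993) and Adss (0.986). With so many genes and 6 libraries from 2 groups, values this high describe the libraries and carry no test.

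The log2 fold changes of the 9 tested genes were recomputed under 13 alternatives each. Faap20 kept a positive sign (0.88 to 1.32), as did Fancm (0.40 to 0.64), and Fanca (-0.68 to -0.41), Fancd2 (-0.84 to -0.33), Fancb (-0.998 to -0.23) and Fance (-1.82 to -0.04) kept a negative one. Fancc, Fancg and Fancl took both signs.

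**Figure D4:**
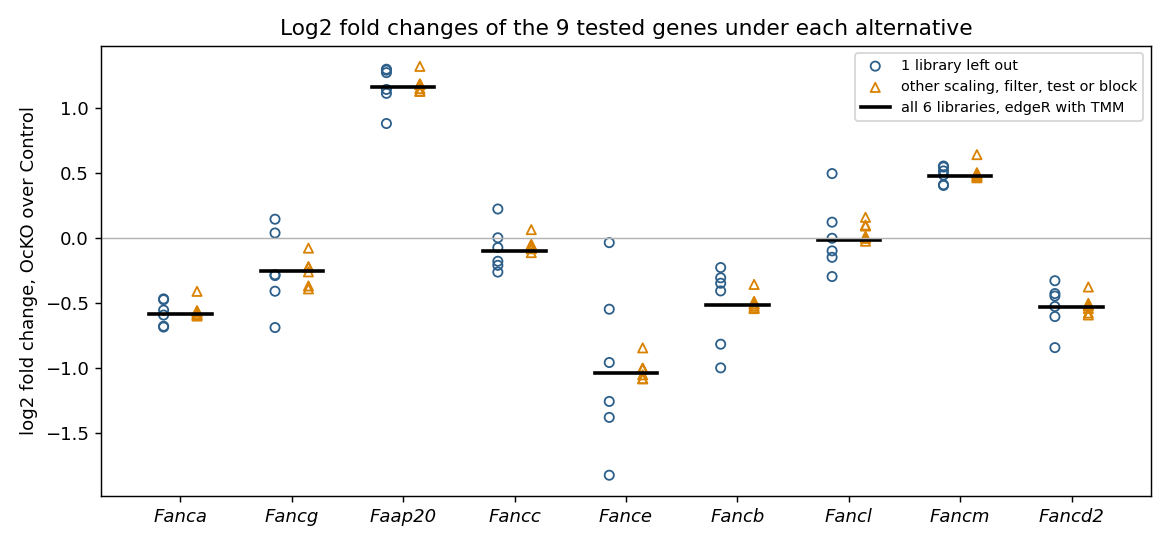
Log2 fold changes (OcKO over Control) of the 9 tested genes with all libraries (black bars), with 1 library left out (blue circles) and with another scaling, filter, test or a replicate block (orange triangles). Faap20 stays between 0.88 and 1.32, while Fance runs from -1.82 to -0.04.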

How the data were processed

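The NEBNext low-input kit of the labels' protocols was used to build libraries from oocyte RNA. The authors deposited raw counts of reads per gene, in 1 table for the series and again for each sample. The submitters' processing notes list Trimmomatic 0.36, STAR 2.5.2b, featureCounts (Subread 1.5.2) and the build GRCm38. The sources used here give no annotation release, strand setting or rule for reads that match several genes. Deposited gene lengths merge all exons of a gene.

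Counts were compared in R 4.3.3 with edgeR 4.0.16 (estimateDisp, glmQLFit, glmQLFTest), TMM scaling and filterByExpr, which left 16060 genes, with Benjamini-Hochberg adjustment over these. The SE was obtained by dividing the log2 fold change, without its sign, by the root of the F statistic, and intervals are 95%. Alternatives were library size alone, DESeq2 size factors, no filter, a minimum of 5 CPM, DESeq2 1.42.0, limma 3.58.1 voom, a replicate block and leaving out each library. The scripts were tested on simulated data. The members, gene lists and tests were chosen with earlier results of these data known. A further downstream gene is not reported here. The text names all members and Rpa1, genes whose exons overlap a member, Fanci and list genes with an unadjusted p under 0.05. It also names Rhpn2 and Polg, whose exons overlap the partner genes Faap24 and Fanci, and the 3 genes most like Faap20 and Fancd2 in pattern. Ube2t, Faap100, Cenps and the marker genes named were chosen after their values were seen. Replicates differed well beyond counting noise (chi-square over degrees of freedom at least 114.5), so none is a second sequencing of another library. This value cannot exclude a repeat preparation from the same RNA, and that the mice differ is known from the labels alone. The SD between libraries holds that between mice and of library preparation. Reads carry no molecular identifiers.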

Additional observations from a re-analysis of the deposited data

How the results depend on the processing

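Of 117 recomputed log2 fold changes of the 9 tested genes, 104 kept their sign and their side of the threshold, 12 took the other sign, and 1, Faap20 with DESeq2 (1.18), passed the threshold. Fancc was 0.064 with library size alone, 0.0019 without OcKO replicate 2 and 0.22 without Control replicate 3 (-0.26 to 0.22 over the fits without 1 library). Fancg was 0.14 without OcKO replicate 2 and 0.04 without Control replicate 1 (-0.69 to 0.14). Fancl was 0.16 with library size alone, 0.00023 with DESeq2 size factors in edgeR, 0.013 at a minimum of 5 CPM, 0.092 with limma voom, 0.10 with a replicate block, 0.12 without OcKO replicate 3 and 0.50 without Control replicate 2 (-0.30 to 0.50). The cause was not tested. Members called higher were 1 with DESeq2 and 0 in the other 12 alternatives (0 to 0 over the 6 fits without 1 library), and members called lower were 0 throughout.

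Over all genes the counts were 22 higher and 1 lower with edgeR, 64 and 8 with only genes of at least 5 CPM, with DESeq2 770 and 393, with limma voom 0 and 1, and with the replicate block 0 and 0. Leaving out 1 library gave 0 to 4 higher and 0 to 2 lower. Library size alone moved the median over all tested genes to 0.18, in place of 0.01, and that of the 9 genes to -0.08, in place of -0.25; the partner list moved to 0.27 and the downstream list to 0.18. The replicate numbers name different mice, and deviations of same-numbered OcKO and Control libraries from their group means correlated at -0.037, -0.0448 and -0.045 across genes, so the numbers were not taken as pairs; with the replicate block the adjusted p of Faap20 was 0.481. With 3 libraries a group, the 95% intervals of Fance (-3.13 to 1.06) and Fancl (-1.12 to 1.09) allow more than a doubling and more than a halving.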
